A study of Felis catus with 36 samples.

Results

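ENSFCAG00000046690 is 1 of 26681 cat genes counted in left ventricle and skeletal muscle, and it was selected on its measured level, which was higher in banded than in sham left ventricle at 4 months and lower at 4 months than at 1 month in skeletal muscle. Those differences are given below as descriptions with no test, since they chose the gene. The libraries come from cats with aortic banding, a narrowing around the aorta used per the labels to model HFpEF (heart failure in which the ejection fraction is preserved), and from sham-operated cats. Each tissue had 5 banded and 5 sham libraries at 4 months and 5 banded and 3 sham libraries at 1 month, 36 libraries in all. The labels give no sex, age, strain or batch and leave unsaid whether each library is a separate animal, so p-values measure the spread between these libraries, which may be technical.

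The files and the reference table pair none of the 26681 identifiers with a symbol (0 joined to 39307 listed genes), so the gene has no name, product or sequence here and the labelled tissues could not be checked against marker genes. As background, a band around the aorta raises the pressure against which the left ventricle ejects. The ventricle's muscle thickens and stiffens under such a load, and in HFpEF it fills poorly while its ejection fraction is kept. Skeletal muscle does not pump against the band, and it is often studied in HFpEF because exercise intolerance is a leading complaint.

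Left ventricle libraries held 14.6 M to 22.3 M gene counts and skeletal muscle libraries 21.5 M to 34.9 M. ENSFCAG00000046690 received 2754 to 10154 counts in each left ventricle library and 67 to 577 in each skeletal muscle library. Ranked by raw count, with no correction for gene length, it stood between place 233 and place 1042 in left ventricle libraries and between place 4569 and place 9449 in skeletal muscle libraries. Its counting error (the square root of the count over the count) was between 0.992% and 1.91% in left ventricle and between 4.16% and 12.2% in skeletal muscle. The lowest count, 67 in sham skeletal muscle library 1 at 4 months, had an exact Poisson 95% interval of 51.9 to 85.1, which covers counting error only. Sham library 1 of 4 months had no weight in the authors' deposited tables of either tissue, where sham library 1 of 1 month stood in its place, so the levels, ratios and fold changes of sham at 4 months are also given without it.

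Levels are given in CPM (counts brought to the same total in each library), with library sizes adjusted within a tissue by TMM (trimmed means of log ratios). In left ventricle at 4 months the 5 banded libraries stood at 503, 538, 556, 456 and 455 CPM in the order of their numbers. The 5 sham libraries at 4 months stood at 318, 199.8, 266, 198 and 155 CPM. Every banded library lay above every sham library, and the nearest values were 455 CPM in banded library 5 and 318 CPM in sham library 1. This order held for 0.88% of the 13976 genes tested, and nothing is read from it, since it chose the gene. The means were 502 ± 46.3 CPM in banded and 227 ± 64.5 CPM in sham libraries (SD, n = 5 each), with a ratio of 2.21. In these bulk samples, more RNA of this gene per cell and more cells that carry it cannot be told apart. The coefficient of variation was 9.22% in banded and 28.4% in sham libraries at 4 months, a difference that was not tested, and the highest sham value was 2.06 times the lowest. Without sham library 1 the other 4 sham libraries averaged 205 ± 45.8 CPM (SD, n = 4), with a coefficient of variation of 22.4% and a highest value of 266 CPM, 1.72 times their lowest. The ratio of banded to sham means was then 2.45.

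**Figure D1:**
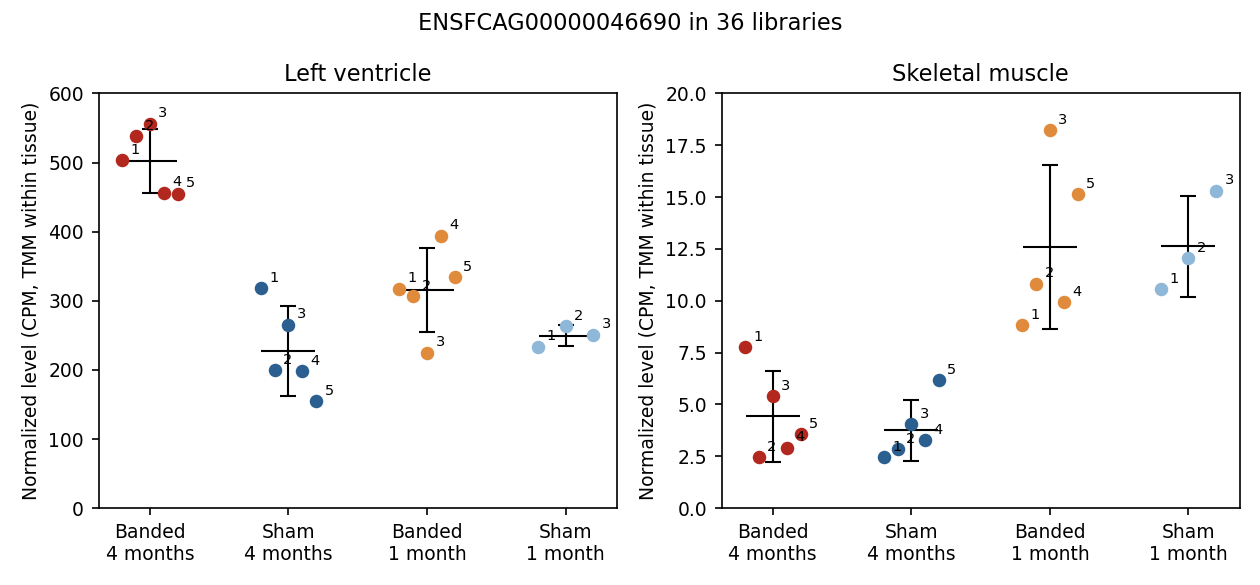
Level of ENSFCAG00000046690 (y axis, CPM scaled by TMM within a tissue) in banded and sham libraries at 4 months and at 1 month (x axis), in left ventricle on the left and skeletal muscle on the right, with separate scales. Points are libraries with their numbers, and the bar and whiskers are the mean and SD; in left ventricle the banded 4-month libraries lie at 455 to 556 CPM, above all others, while in skeletal muscle both 4-month groups lie below both 1-month groups.

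At 1 month, a difference that did not enter the choice of the gene, the 5 banded left ventricle libraries stood at 318, 307, 225, 394 and 335 CPM and the 3 sham libraries at 234, 263 and 251 CPM. Of the 5 banded libraries, 4 lay above all sham libraries and library 3 lay below all of them, so the groups overlapped. Banded libraries averaged 316 ± 60.96 CPM (SD, n = 5), against 249 ± 14.97 CPM in sham libraries (SD, n = 3). The log2 fold change was 0.34 (SE 0.203, 95% interval -0.09 to 0.77, adjusted p 0.685 with edgeR's quasi-likelihood test and Benjamini-Hochberg adjustment over 13976 genes). The banding effect at 1 month was thus not distinguishable from the spread between libraries, and the interval also includes increases of up to 0.77. Whether the interval reached 0 depended on banded library 3. Without it the value was 0.46 (95% interval 0.04 to 0.87, adjusted p 0.546 with edgeR). Without banded library 4 the value was 0.25 (95% interval -0.19 to 0.68). Among all genes edgeR called 0 (0% of those tested), a count that rested on single libraries, with 571 called without sham library 2 and 62 without banded library 2. An unadjusted p under 0.05 was reached by 1216 (8.7%), and 100 (0.716%) were called by DESeq2 and 0 (0%) by limma voom.

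Banding at 4 months gave a log2 fold change of 1.14 (SE 0.176, 95% interval 0.77 to 1.51), given with no test. The SE and interval take no account of the choice of the gene on this difference, so the interval is not read against 0. This fold change ranked 238th from the top among 13976 genes by signed value and 362nd by size in either direction. Without sham library 1 it was 1.32. Set against 1 month, the effect of banding at 4 months was larger by 0.80 (SE 0.265), likewise with no test, and by 0.96 (SE 0.240) without sham library 1 of 4 months.

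Over time in left ventricle, the banded libraries at 4 months (455 to 556 CPM) lay above all banded libraries at 1 month (225 to 394 CPM). This held for 8.71% of the genes tested, and as it rests on the libraries that chose the gene nothing is read from it. The log2 fold change from 1 month was 0.67 (SE 0.175) in banded libraries and -0.13 (SE 0.201) in sham libraries. In sham libraries the values at 4 months (155 to 318 CPM) enclosed those at 1 month (234 to 263 CPM). The sham value rested on single libraries at 4 months. Without library 1 it was -0.27, and without library 5 it was -0.0099.

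Depth and the share of reads assigned to genes moved with banding in left ventricle at 4 months. Banded libraries held 14.6 M to 20.7 M gene counts and sham libraries 19.5 M to 22.3 M, and 46.1% to 62.4% of what was counted per banded library were assigned to genes, against 57.2% to 62.5% per sham library. The 3 banded libraries with the lowest assigned share, libraries 1, 2 and 3 at 48.8%, 52.2% and 46.1%, were also the 3 with the highest level. Banded libraries 4 and 5 had shares of 58.1% and 62.4%, within the range of the sham libraries, and stood at 456 and 455 CPM. Sham library 4, with a share of 62.5%, stood at 198 CPM. Whether depth or the assigned share bears on the level of the gene was not tested. At 1 month the assigned share was 52.5% to 63.8% in banded and 52.8% to 54.9% in sham libraries.

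**Figure D2:**
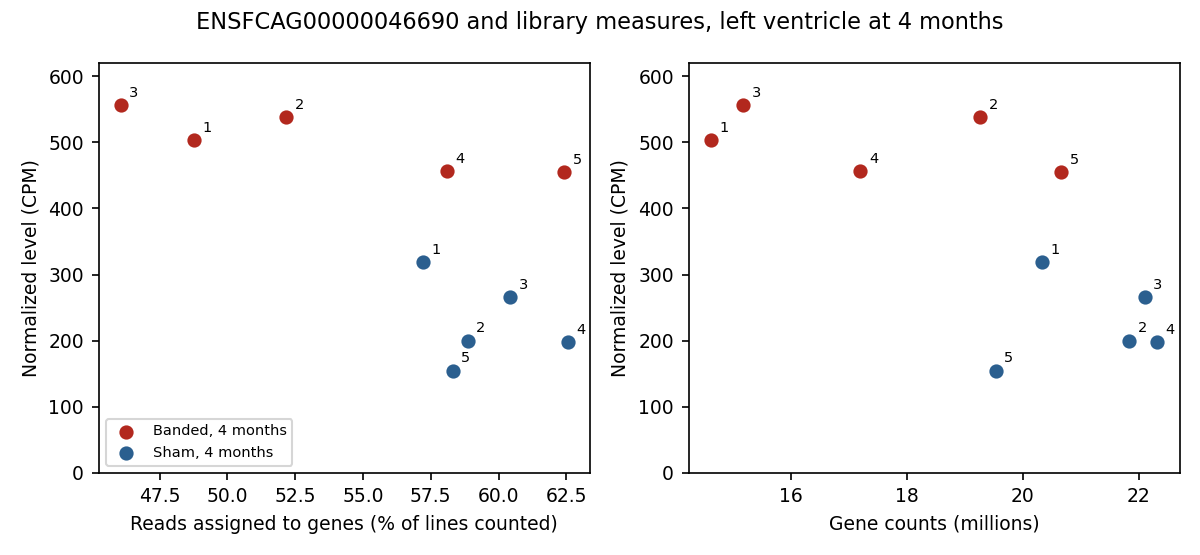
Level of ENSFCAG00000046690 (y axis, CPM) in the 10 left ventricle libraries of 4 months against the share of reads assigned to genes (left, %) and the gene counts (right, M), with library numbers beside the points. Banded libraries 1, 2 and 3 have the lowest assigned shares of the 10 and the highest levels. Banded library 5 lies among the sham libraries on both x axes and stands at 455 CPM, above all sham libraries. Neither relation was tested.

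In skeletal muscle the gene was counted at a far lower level, and the banded and sham libraries of the same time overlapped. At 4 months the 5 banded libraries stood at 7.78, 2.45, 5.39, 2.92 and 3.57 CPM and the 5 sham libraries at 2.46, 2.84, 4.04, 3.27 and 6.17 CPM. The means were 4.42 ± 2.18 CPM in banded and 3.76 ± 1.47 CPM in sham libraries (SD, n = 5 each), and the other 4 sham libraries averaged 4.08 ± 1.48 CPM without library 1 (SD, n = 4). Banding at 4 months in skeletal muscle did not enter the choice, but its libraries are among those of the fall with time that did. It gave a log2 fold change of 0.23 (SE 0.312, 95% interval -0.42 to 0.89, adjusted p 0.901 with edgeR). Its sign rested on banded library 1, the highest of the 10, and without it the value was -0.082; without sham library 5 it was 0.49, and without sham library 1 it was 0.11. Of 13480 genes tested edgeR called 0 (0%), against 22 without banded library 1 and 6 without sham library 5. An unadjusted p under 0.05 was reached by 1063 (7.89%), and 56 (0.417%) were called by DESeq2 and 0 (0%) by limma voom.

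At 1 month the 5 banded skeletal muscle libraries stood at 8.84, 10.8, 18.2, 9.95 and 15.1 CPM and the 3 sham libraries at 10.5, 12.05 and 15.3 CPM. The banded libraries lay on both sides of the sham range. Banded libraries averaged 12.6 ± 3.95 CPM (SD, n = 5), against 12.6 ± 2.44 CPM in sham libraries (SD, n = 3). The log2 fold change was -0.0045 (SE 0.348, 95% interval -0.74 to 0.73, adjusted p 0.998 with edgeR), so a difference was not detectable and changes of either sign within that interval remain possible. At 1 month 0 genes (0%) were called by edgeR, and 0 to 2 with 1 library left out. An unadjusted p under 0.05 was reached by 1898 (14.1%), and 24 (0.179%) were called by DESeq2 and 0 (0%) by limma voom.

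The skeletal muscle level at 4 months lay below that at 1 month in both treatments, which is the other difference that chose the gene. Banded libraries stood at 2.45 to 7.78 CPM at 4 months and at 8.84 to 18.2 CPM at 1 month, with no overlap. Sham libraries stood at 2.46 to 6.17 CPM at 4 months and at 10.5 to 15.3 CPM at 1 month, again with no overlap. All libraries at 4 months lay below all those at 1 month for 13.7% of the 13480 genes in banded and 16.8% in sham animals, and nothing is read from these shares. The log2 fold change from 1 month was -1.51 (SE 0.311) in banded and -1.74 (SE 0.346) in sham libraries, with no test. The sham value was -1.62 without sham library 1 of 4 months. With 67 to 221 counts per library at 4 months, counting error was 6.73% to 12.2% of the value, while the libraries' own coefficient of variation was 49.4% in banded and 39.2% in sham (36.3% without sham library 1). The labels give no date or batch, so age, time after the operation and a possible sequencing batch cannot be told apart.

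The banding effect at 1 month was compared between the tissues in a fit of all 36 libraries. The effect in left ventricle minus that in skeletal muscle was 0.36 (SE 0.404, 95% interval -0.46 to 1.19, adjusted p 0.896 with edgeR over 14579 genes), so no difference between the tissues was detectable at 1 month. At 4 months the same difference was 0.95 (SE 0.358), given with no test because the left ventricle part chose the gene, and 1.224 (SE 0.362) without sham library 1 of both tissues. For the difference at 1 month 0 genes (0%) were called by edgeR, against 276 without sham left ventricle library 2 and 8 without banded left ventricle library 2. An unadjusted p under 0.05 was reached by 1133 (7.77%), and 2 (0.0137%) were called by DESeq2 and 0 (0%) by limma voom.

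**Figure D3:**
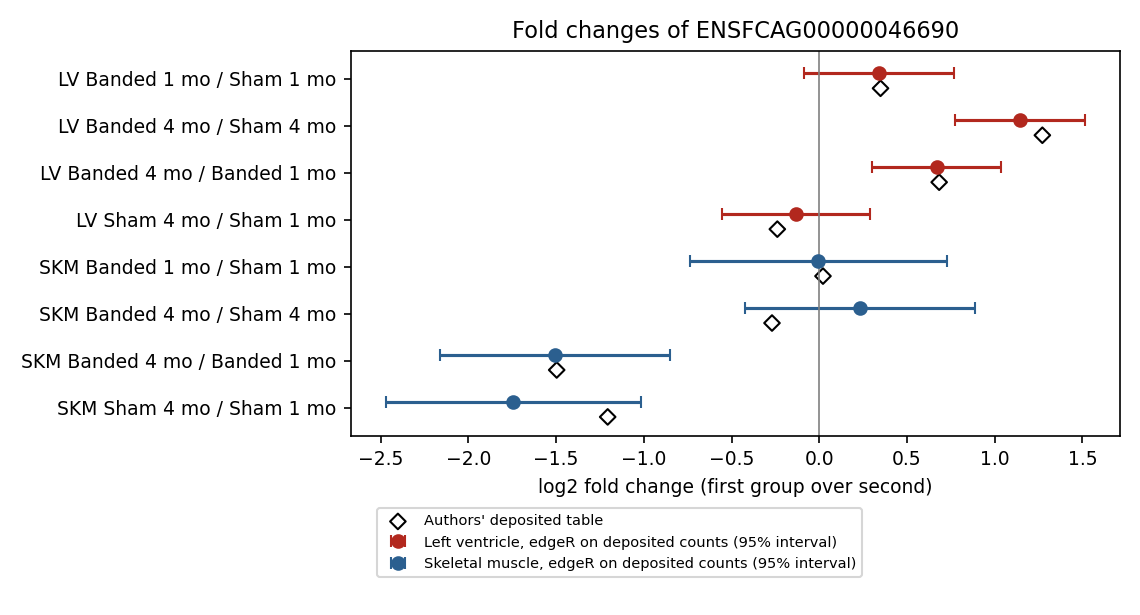
Log2 fold change of ENSFCAG00000046690 (x axis) for banding at each time and for time in each treatment (y axis), in left ventricle (LV) and skeletal muscle (SKM). The intervals for banding at 4 months in LV and for time take no account of the choice of the gene and are not tests. Filled points are edgeR estimates from the deposited counts with 95% intervals and open diamonds are the authors' deposited values; for banding at 4 months in skeletal muscle the points lie on opposite sides of 0, at 0.23 from the counts and -0.27 in the authors' deposited table.

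To order the 8 groups, all 36 libraries were scaled together by TMM. The order from high to low was banded left ventricle at 4 months (392 ± 37.7 CPM), banded left ventricle at 1 month (250.2 ± 49.2 CPM), sham left ventricle at 1 month (193 ± 12.7 CPM) and sham left ventricle at 4 months (175 ± 49.8 CPM). Then came banded skeletal muscle at 1 month (15.8 ± 5.00 CPM), sham skeletal muscle at 1 month (15.7 ± 2.93 CPM), banded skeletal muscle at 4 months (5.73 ± 2.76 CPM) and sham skeletal muscle at 4 months (4.92 ± 1.88 CPM; all SD, n = 5, or 3 for sham at 1 month). The ranges of neighbours were apart at 3 steps: between banded left ventricle at 4 months and at 1 month, between the tissues, and between sham skeletal muscle at 1 month and banded skeletal muscle at 4 months. Without library 1, sham at 4 months averaged 157 ± 33.3 CPM in left ventricle and 5.34 ± 1.88 CPM in skeletal muscle (SD, n = 4 each), and kept its place in the order. At the other 4 steps the ranges overlapped, which describes these libraries and does not test whether those neighbours differ. The first of the 3 gaps depended on the scaling. On CPM without TMM the banded left ventricle libraries stood at 430.03 to 527 CPM at 4 months and at 231 to 474 CPM at 1 month, and overlapped.

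Every left ventricle library lay above every skeletal muscle library, as it did for 7.19% of the 14579 genes in that fit. The ratio of left ventricle to skeletal muscle means was 68.4 in banded and 35.6 in sham libraries at 4 months (29.4 in sham without library 1). At 1 month it was 15.8 in banded and 12.3 in sham libraries. The sizes depend on how the tissues are scaled to each other. On CPM without TMM they were 109 in banded and 58.3 in sham libraries at 4 months (48.4 in sham without library 1), and 26.4 in banded and 20.4 in sham libraries at 1 month, and the order of the 4 ratios was the same on both scales.

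Within groups, the log2 level of the gene in left ventricle varied with an SD of 0.279. The median over the 726 genes within a 2-fold range of its mean level was 0.29, so its spread was ordinary for its level. In skeletal muscle the within-group SD was 0.515, larger than that of 85.1% of the 3830 genes within a 2-fold range of its level there.

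Libraries carry the same numbers in both tissues, and the labels do not say whether a number marks an animal. In sham animals at 4 months, library 1 was the highest in left ventricle and the lowest in skeletal muscle, and library 5 was the lowest in left ventricle and the highest in skeletal muscle. Over all 18 numbers, deviations from the group mean gave a Pearson r of -0.40 (two-sided permutation p 0.121, numbers shuffled within groups, 100000 resamples) and a Spearman rho of -0.24 (permutation p 0.389). Without the 2 numbers farthest from the median in left ventricle, sham libraries 1 and 5 of 4 months, r was -0.11 and rho 0.05, so the relation rested on those libraries. These are 2 measures of 1 relation, and neither passed 0.05.

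**Figure D4:**
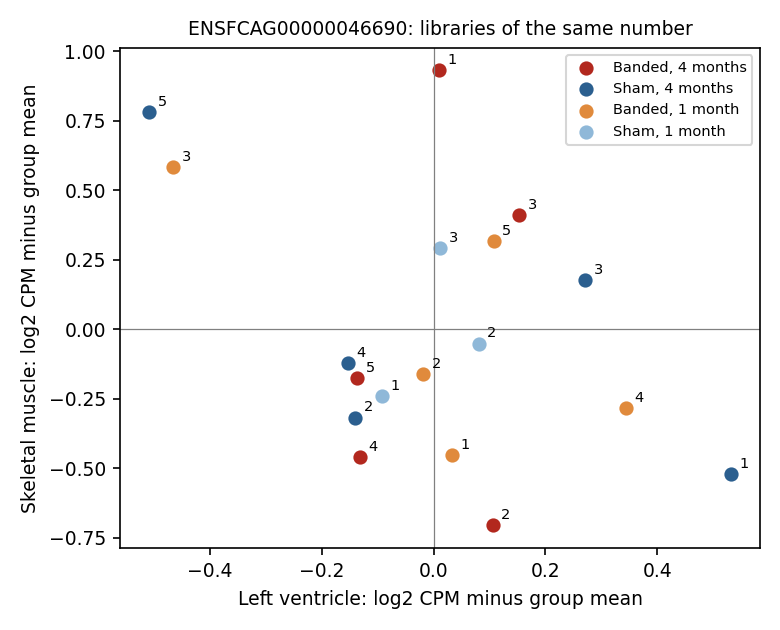
Deviation of ENSFCAG00000046690 from its group mean (log2 CPM) in left ventricle (x axis) and skeletal muscle (y axis) for libraries of the same number, coloured by group. The sham 4-month libraries 1 and 5 lie at opposite corners, at 0.53 and -0.52 for library 1 and at -0.51 and 0.78 for library 5; Pearson r over the 18 points is -0.40.

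The left ventricle genes that follow ENSFCAG00000046690 most closely were found by Pearson's r of log2 CPM over the 18 left ventricle libraries, among 12439 genes with a mean of at least 1 CPM. These values describe likeness, carry no p, and are partly set by the group differences that chose the gene. All points of a library also share its depth and scaling. Over all genes the median r was -0.01, with the middle 95% between -0.52 and 0.54. The 4 genes with the highest r were ENSFCAG00000045406 at 0.89, ENSFCAG00000011798 at 0.81, ENSFCAG00000028133 at 0.81 and ENSFCAG00000028214 at 0.81, and these were all the genes with an r of at least 0.8. Which genes came first depended on the libraries. None of the 4 was among the 4 highest in the libraries of 4 months alone or of 1 month alone (0 shared in each), 1 was after removal of group means, and with 1 library left out 1 to 4 were. Of the 100 highest, 39 were shared with the 100 highest at 4 months, 7 with those at 1 month and 9 with those after removal of group means.

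ENSFCAG00000045406 stood apart from the other 3. Its banded left ventricle libraries at 4 months stood at 28.8, 42.6, 45.6, 29.8 and 24.3 CPM and its sham libraries at 28.6, 19.9, 18.1, 17.2 and 10.7 CPM. At 1 month its banded libraries stood at 27.2, 20.2, 18.4, 29.05 and 28.6 CPM and its sham libraries at 15.6, 20.4 and 24.0 CPM. As for ENSFCAG00000046690, the highest values at 4 months were those of banded libraries 2 and 3 and the lowest that of sham library 5, but here the banded and sham groups overlapped at both times. Its r was 0.91 within the 10 libraries of 4 months, where it ranked 5th. Within the 8 libraries of 1 month its r was 0.82, where it ranked 106th and 148 genes had an r of at least 0.8. After the group means were removed it was 0.81, the highest of all 12439 genes. With any 1 library left out r over the other libraries was 0.86 to 0.92, and Spearman's rho over the 18 was 0.92. Without the 2 libraries farthest from the median of ENSFCAG00000046690 r was 0.83. In skeletal muscle, where ENSFCAG00000045406 averaged 0.576 to 1.01 CPM per group, r was 0.45 over 18 libraries and 0.50 after removal of group means. Its lowest banded 4-month library there stood at 0.162 CPM, so these values rest on few counts.

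**Figure D5:**
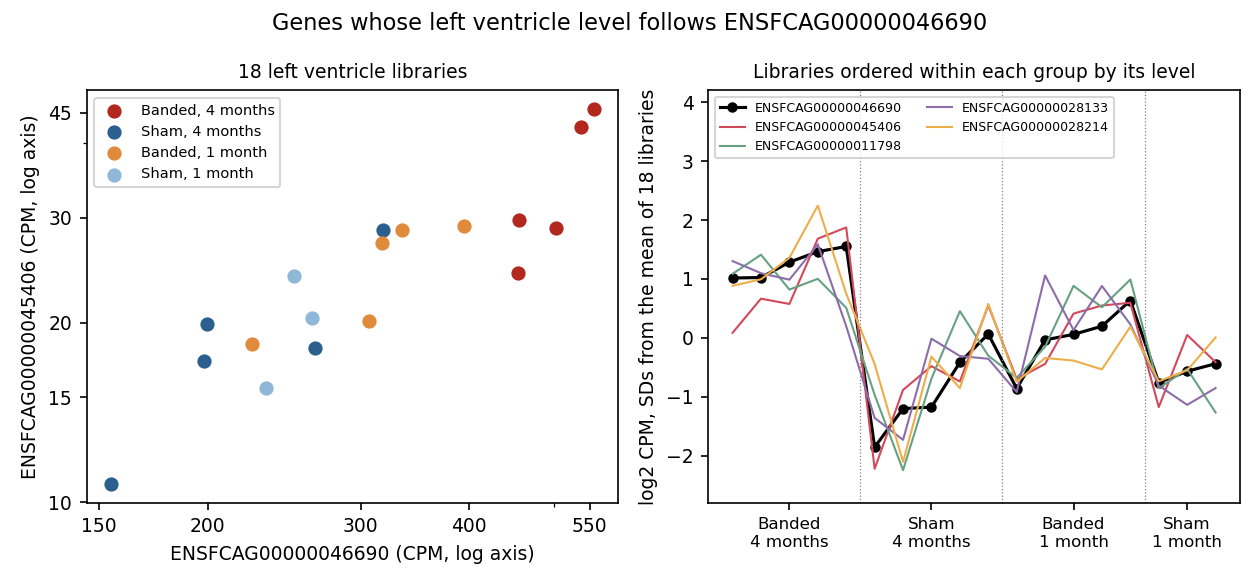
Left, ENSFCAG00000045406 against ENSFCAG00000046690 in the 18 left ventricle libraries (CPM on log axes, r of 0.89). Right, log2 CPM of ENSFCAG00000046690 (black) and of the 4 genes with the highest r, in SDs from each gene's mean over the 18 libraries, with libraries ordered within each group by the level of ENSFCAG00000046690; all lines lie above 0 in the banded libraries of 4 months and mostly below 0 in the sham libraries.

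The other 3 genes had a lower r within groups than over all libraries. After removal of group means r was 0.54 for ENSFCAG00000011798, 0.46 for ENSFCAG00000028133 and 0.46 for ENSFCAG00000028214. ENSFCAG00000011798 averaged 7.43 ± 2.13 CPM in banded and 2.06 ± 1.6 CPM in sham left ventricle at 4 months (SD, n = 5 each). At 1 month it averaged 4.66 ± 2.46 CPM in banded left ventricle (SD, n = 5), against 1.45 ± 0.477 CPM in sham left ventricle (SD, n = 3). Its banded libraries at 4 months, from 4.84 to 10.6 CPM, lay above its sham libraries, from 0.364 to 4.60 CPM. ENSFCAG00000028133 averaged 20.9 ± 2.2 CPM in banded and 14.4 ± 2.19 CPM in sham libraries at 4 months (SD, n = 5 each), with ranges apart at 17.4 to 23.3 CPM in banded and 11.6 to 16.6 CPM in sham. ENSFCAG00000028214 averaged 75.2 ± 12.7 CPM in banded and 46.6 ± 11.4 CPM in sham libraries at 4 months (SD, n = 5 each), also with ranges apart. At 1 month it averaged 48.9 ± 4.59 CPM in banded libraries (SD, n = 5), against 48.1 ± 4.99 CPM in sham libraries (SD, n = 3). Over all 13976 genes tested, 0.88% had every banded library above every sham library at 4 months. Nothing is read from that order in these 3 genes, since they were picked for their r with a gene chosen on that difference.

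The likeness of these 3 genes was mixed in skeletal muscle. ENSFCAG00000011798 had an r of 0.50 there, at group means of only 0.109 to 0.618 CPM and with a library at 0, so this r rests on few counts, while ENSFCAG00000028133 and ENSFCAG00000028214 had -0.63 and -0.66. After removal of group means those last values were 0.41 and 0.51. ENSFCAG00000028214 averaged 49.1 ± 8.79 CPM in banded skeletal muscle at 4 months and 22.8 ± 3.15 CPM at 1 month (SD, n = 5 each), whereas ENSFCAG00000046690 was lower at 4 months. Of the 100 genes with the highest r in left ventricle, 94 were also tested in skeletal muscle, and 33 of these (35.1%) had an r above 0 there, with a median of -0.20. Over all genes compared the share was 49.6% and the median -0.01. That r includes the difference between times by which the gene was selected. After removal of group means the median in skeletal muscle was 0.15 for the 100 genes and 0.03 over all genes.

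The most opposite patterns in left ventricle were those of ENSFCAG00000011648 (r = -0.79) and ENSFCAG00000004529 (r = -0.79). ENSFCAG00000011648 averaged 45.7 ± 8.45 CPM in banded and 77.6 ± 21.5 CPM in sham libraries at 4 months (SD, n = 5 each), with ranges that overlapped. ENSFCAG00000004529 averaged 1.43 ± 0.439 CPM in banded and 2.66 ± 0.451 CPM in sham libraries at 4 months (SD, n = 5 each). Its ranges nearly met, from 1.01 to 2.15 CPM in banded and from 2.16 to 3.17 CPM in sham. Banded libraries below all sham libraries were seen for 0.708% of the genes tested. Nothing is read from this order, since the gene was picked for its r with a gene chosen on that difference. After removal of group means the gene with the next highest r was ENSFCAG00000004245 at 0.80. Its r over the 18 libraries as they stand was 0.21. Over the 18 skeletal muscle libraries it was -0.74, which includes the difference between times that chose the gene. After removal of group means it was -0.19 there.

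The authors' deposited tables list the gene in all 8 comparisons, and 4 of them involve sham at 4 months. For banding at 4 months the authors' deposited tables give a log2 fold change of 1.27 (SE 0.158) for left ventricle and -0.27 (SE 0.361) for skeletal muscle, while the deposited counts gave 1.14 and 0.23. For time in sham animals the authors' deposited tables give -0.24 for left ventricle and -1.21 for skeletal muscle, while the counts gave -0.13 and -1.74. For time in banded animals they give 0.68 and -1.50, beside 0.67 and -1.51 from the counts, and for banding at 1 month the authors' deposited tables give 0.35 and 0.02, beside 0.34 and -0.0045. A fit of the authors' mean normalized counts to the libraries gave sham 1-month library 1 a weight of 2.01 for left ventricle and 1.99 for skeletal muscle, and gave sham 4-month library 1 a weight of 0 in both. The library with weight 0 was the highest of the sham left ventricle libraries at 4 months for this gene (318 CPM, against 234 CPM in sham 1-month library 1) and the lowest in skeletal muscle (2.46 CPM, against 10.5 CPM in sham 1-month library 1). With that replacement made in the counts, DESeq2 gave 1.27 for left ventricle and -0.27 for skeletal muscle for banding at 4 months, and -0.24 and -1.21 for time in sham animals.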

How the data were processed

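Per the labels' protocols, total RNA was made into stranded mRNA libraries. The tools named, per the submitters' processing notes, are HTSeq 0.11.2, HISAT2 2.1.0 and DESeq2 1.22.2; genome build, annotation and strand setting are not given in the sources used here. The authors deposited whole-number counts per gene, not normalized, and 8 comparison tables holding a mean normalized signal, log2 fold changes with standard errors, a test score and p-values. Summary lines were left out of library sizes; reads in genes were 46.1% to 76.3% of lines.

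Each tissue's 18 libraries were fitted with edgeR 4.0.16 (R 4.3.3; filterByExpr, TMM, 4 group means, two-sided quasi-likelihood tests, adjusted p under 0.05), and all 36 for differences between tissues. SEs are fold change over the root of F. Of the contrasts, 4 did not enter the gene's choice and were tested, though those with skeletal muscle share libraries with the fall with time that did. Log2 CPM used a prior count of 2. DESeq2 1.42.0, limma 3.58.1 voom, RLE scaling, no filter, fewer groups, a replicate block, a replaced library and left-out libraries were alternatives. Fits were also run on simulated counts with changes set in the banded 4-month group only. No outcome of that is given here, and no result rests on it. Named genes were the 4 of highest and 2 of lowest r, and the 2 of highest r within groups, of which 1 was already named. The gene, lists and rules were chosen with earlier results of these data known.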

Additional observations from a re-analysis of the deposited data

Results flagged for a closer look

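From 1 to 4 months in banded animals, ENSFCAG00000046690 moved in opposite directions in the tissues. All 5 left ventricle libraries of 4 months lay above all those of 1 month, as held for 8.71% of the genes tested there. All 5 skeletal muscle libraries of 4 months lay below all those of 1 month, as held for 13.7% of the genes tested there. The share of genes with both orders was not counted, and nothing is read from either. The log2 fold changes were 0.67 in left ventricle and -1.51 in skeletal muscle, a difference of 2.18. The difference was not tested, because both changes bear on the choice of the gene. By Dixon's ratio no library of the 6 groups with 5 libraries was singled out, with gaps of 0.177 to 0.575 of the group's range where 0.71 is the limit. That limit is high with 5 libraries, so this does not show that single libraries carry little weight.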

How the results depend on the processing

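The 4 tested differences stayed above an adjusted p of 0.05 under all alternatives run that gave one (0.382 or higher). Banding at 1 month in left ventricle ran from 0.25 to 0.46 with 1 library left out and the difference between tissues from 0.21 to 0.54. In skeletal muscle the value at 1 month, near 0, changed sign with DESeq2 (0.024), RLE scaling (0.024) and no filter (0.015), and ran from -0.18 to 0.16 with 1 library left out. At 4 months it ran from -0.082 (without banded library 1) to 0.49, and was -0.28 with edgeR and -0.27 with DESeq2 once sham 1-month library 1 replaced sham 4-month library 1. Banding at 4 months in left ventricle ran from 1.05 to 1.32 with 1 library left out. Time in sham left ventricle ran from -0.27 to -0.0099 and was -0.24 with the replaced library under both tools, and time in sham skeletal muscle was then -1.23 and -1.21. The remaining time ranges were 0.59 to 0.76 (banded left ventricle), -1.83 to -1.34 (banded skeletal muscle) and -2.002 to -1.58 (sham skeletal muscle). The cause of these shifts was not tested. The replacement with DESeq2, the filter, block and replacement for time, levels without sham 4-month library 1, and r within groups were added after seeing the data.

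The library number as a replicate block changed no call. With it, banding was 1.16 at 4 months and 0.40 at 1 month for left ventricle, 0.24 and -0.03 for skeletal muscle, and the difference between tissues 0.38. Numbers were not taken as pairs in the main fits, since the labels do not say that a number marks an animal. The main fit between tissues thus took its libraries as independent. Deviations over all genes correlated above 0.1 in 13 of 18 numbers across tissues and 5 of 16 between banded and sham. No values for libraries of different numbers are given beside these counts, so they do not settle whether numbers mark animals.

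CPM without TMM moved the group levels to 474 (banded) and 357 (banded, 1 month) and 255 (sham, 1 month) in left ventricle and 12.5 (sham, 1 month) in skeletal muscle. The 4 genes with r of at least 0.8 became 10 without TMM, 73 in the 10 libraries of 4 months, 148 in the 8 of 1 month, 2 after removal of group means, and ran from 2 (without banded 4-month library 2) to 10 (without banded 4-month library 3) with 1 library left out. Over fewer libraries r spreads more widely by construction. Low counts of the gene limit skeletal muscle at 4 months, with 67 to 221 per library, in libraries of 26.8 M to 34.9 M gene counts.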
